A study of Schizosaccharomyces pombe with 50 samples.

Results

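H2A.Z, the histone variant encoded by pht1 in fission yeast (Schizosaccharomyces pombe), was compared between quiescent (Q) and vegetative (V) cells through its Myc tag. The comparison used 6 of the 50 libraries of the series, namely the 3 H2A.Z libraries from V cells and the 3 from Q cells. The libraries were chosen by the antibody and cell state in their labels, and each value was read from the TSS table or the ORF table deposited for H2A.Z. All 6 came from strain Hu3112 (mat1-M smt-0 pht1-myc), so the tagged pht1 gene and the mating type are shared by V and Q cells. V cells were taken in mid-log growth in PMG medium at 30 °C, and Q cells were taken 24 h after the same medium was replaced by PMG-N, which lacks nitrogen. The 6 H3 libraries of the same strain and states served as a comparison for nucleosome occupancy.

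H2A.Z replaces H2A in a subset of nucleosomes. The SWR1 complex, a chromatin remodeler, exchanges H2A for H2A.Z, and the INO80 complex has been linked to the opposite exchange. In growing yeasts H2A.Z is best known from the first nucleosomes downstream of transcription start sites, where it marks the 5′ end of many genes, active or not. Fission yeast cells of 1 mating type that run out of nitrogen stop dividing in G1 and enter a long-lived quiescent state, in which most genes are transcribed less.

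The deposited values are reads per window divided by a factor for each library, and they set the typical window of every library to the same level. A gain or loss of H2A.Z over the whole genome cannot be seen in such values, and whether the Drosophila spike-in chromatin entered them is not stated. All changes below are therefore relative to the other windows of the table. The chromatin came from whole cultures, so a change in every cell and a change in a share of the cells cannot be told apart. TSS windows held 1802445 to 2848554 reads per library and ORF windows 7820899 to 10578209. The median TSS window held 259 to 393 reads, for which counting error alone is 5.04% to 6.21%. The replicates are described as biological triplicates, and the p-values measure the spread between these libraries.

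Q replicate 1 stood apart from the other libraries. Its TSS profile correlated with those of Q replicates 2 and 3 at Spearman's rho of 0.060 and 0.085 across windows, whereas these correlated with each other at 0.929. It could not be told from the H3 library of Q replicate 1 beyond counting noise, with a chi-square per degree of freedom of 0.837 in TSS windows and 0.770 in ORF windows. Independent reads from the same profile give values near 1, so these libraries were closer than counting noise alone would leave them. The cause was not tested. In the other 5 H2A.Z libraries the same measure against the H3 library of the same state and number was 13.4 to 69.8 in TSS windows. The Q replicate 1 libraries of other antibodies were also close to it, at 1.11 for H3K4me3, 1.11 for RNA pol II S5, and 1.82 for H3K9ac in TSS windows, and at 1.29, 1.34, and 3.45 in ORF windows. Results that rest on replicate 1 are therefore given also without replicate 1 of both states, for H2A.Z and for the other antibodies. V replicate 1 was a milder case. It correlated with V replicates 2 and 3 at 0.981 and 0.982, but it differed from them beyond the sampling noise, at 6.47 and 5.36 per degree of freedom, and its high and low windows lay closer together. The TSS windows of V replicates 2 and 3 could not be told apart beyond counting noise (0.990), while their ORF windows could (1.83), and both were kept as separate samples. Counting them as 1 library lowered the calls described below from 231 to 140 at 5′ windows, from 391 to 256 at 3′ windows, and from 174 to 86 over ORF windows (limma without a replicate block). Q replicates 2 and 3 were close too, at 1.08 in TSS windows and 1.29 in ORF windows. Results without replicate 1 therefore rest on 2 libraries per state that differed by little beyond counting noise in TSS windows. Their p-values reflect that small spread.

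The TSS windows are 400 bp long and are centred on the lower coordinate of each gene on the chromosome. For plus-strand genes this is the 5′ end. For minus-strand genes it is the 3′ end, so both sets of windows were described apart, as 5′ windows of plus-strand genes and 3′ windows of minus-strand genes. Of 6521 windows whose identifiers matched the RefSeq annotation, 4119 began exactly 200 bp below the lower coordinate given there.

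In V cells, H2A.Z was spread unevenly over 5′ windows, and in Q cells this spread was narrower. Over the 5′ windows of 2493 protein-coding plus-strand genes, the median H2A.Z level was 391, 428, and 428 in V replicates 1 to 3 and 283, 335, and 334 in Q replicates 1 to 3. The value at the 90th percentile was 2.70, 4.04, and 3.95 times that at the 10th percentile in V cells and 1.62, 1.80, and 2.02 times in Q cells. Both the median and the spread were lower in every Q library than in every V library. For H3 the medians were 231, 213, and 203 in V cells and 217, 224, and 231 in Q cells, and these ranges overlapped. The spread of H3 was also narrower in Q replicates 2 and 3 (1.62 and 1.57) than in V replicates 2 and 3 (2.01 and 2.55), but not in replicate 1 (1.66 in Q and 1.50 in V cells).

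The 3′ windows of minus-strand genes moved the other way where 2 genes converge. In 1368 of these windows the next gene at lower coordinates lay on the plus strand, so that the 3′ ends of both genes faced each other. There the median H2A.Z level was 231, 191, and 199 in V cells and 421, 307, and 298 in Q cells. Every Q library lay above every V library. H3 at these windows, with medians of 292, 347, and 373 in V cells and 333, 315, and 306 in Q cells, overlapped between the states. In the 1149 tandem windows, which lie next to the 5′ end of another minus-strand gene, the medians of H2A.Z were 311, 316, and 320 in V cells and 317, 317, and 307 in Q cells.

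**Figure D1:**
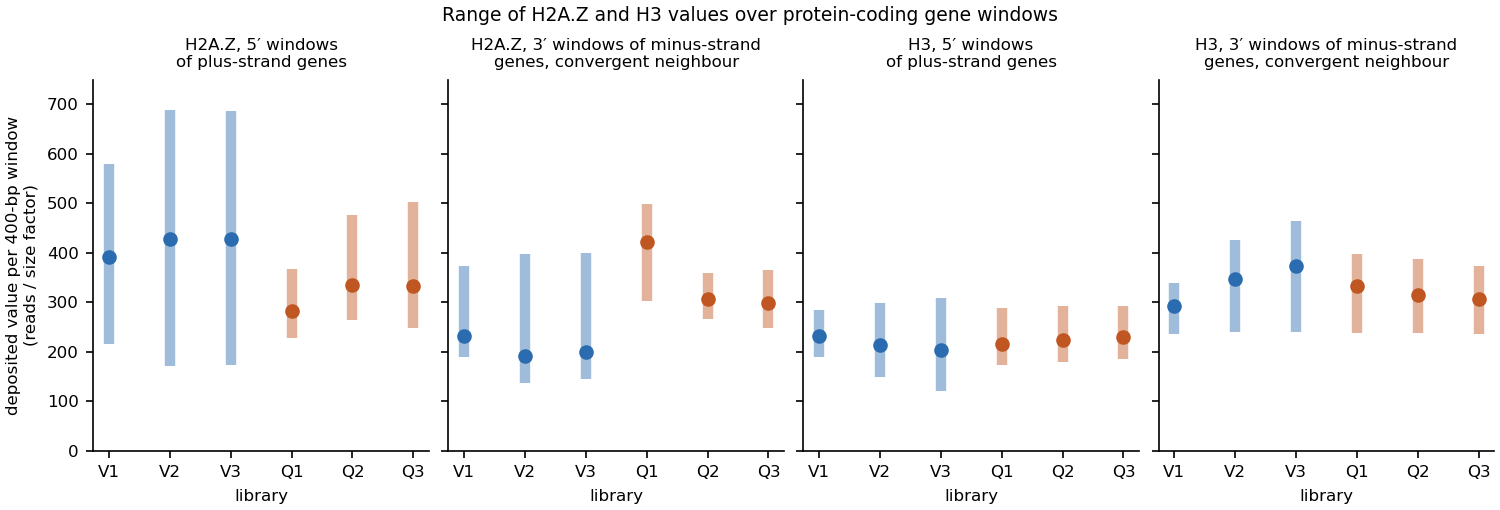
H2A.Z and H3 levels (normalized reads per 400-bp window, linear axis) in each V and Q library, at 5′ windows of protein-coding plus-strand genes and at 3′ windows of minus-strand genes with a convergent neighbour. Points are medians over windows and bars run from the 10th to the 90th percentile. H2A.Z medians at 5′ windows fall from 391 to 428 in V cells to 283 to 335 in Q cells, while those at convergent 3′ windows rise from 191 to 231 to 298 to 421.

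To compare a gene's ends with the whole gene, the reads per bp of each window were divided by those of the ORF window of the same gene. The ORF window includes the end window, which draws the ratio toward equality. For 1707 single-exon plus-strand genes with an ORF window of at least 1000 bp, the median log2 ratio at the 5′ window was 0.33, 0.40, and 0.39 in V replicates 1 to 3. It was -0.24, 0.14, and 0.13 in Q replicates 1 to 3. All 3 Q libraries lay below all 3 V libraries, and the difference of the means was -0.36 (V 0.37 ± 0.04, Q 0.01 ± 0.21, SD, n = 3 each, two-sided exact permutation test, p = 0.1, the smallest p that 3 against 3 libraries allow). Without replicate 1 the difference was -0.26. Relative to the H3 library of the same number, it was -0.55 (exact permutation test, p = 0.1, n = 3 each). Convergent and tandem 3′ windows were pooled for this ratio. At the 3′ windows of 1775 single-exon minus-strand genes, the median log2 ratio lay between 0.02 and 0.07 in all 6 libraries and the difference of the means was -0.00098 (exact permutation test, p = 1.0, n = 3 each). Relative to H3 it was -0.068 (exact permutation test, p = 0.1, n = 3 each). Over the ORF windows of the 1311 single-exon minus-strand genes tested, H2A.Z had a median log2 fold change of 0.16.

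**Figure D2:**
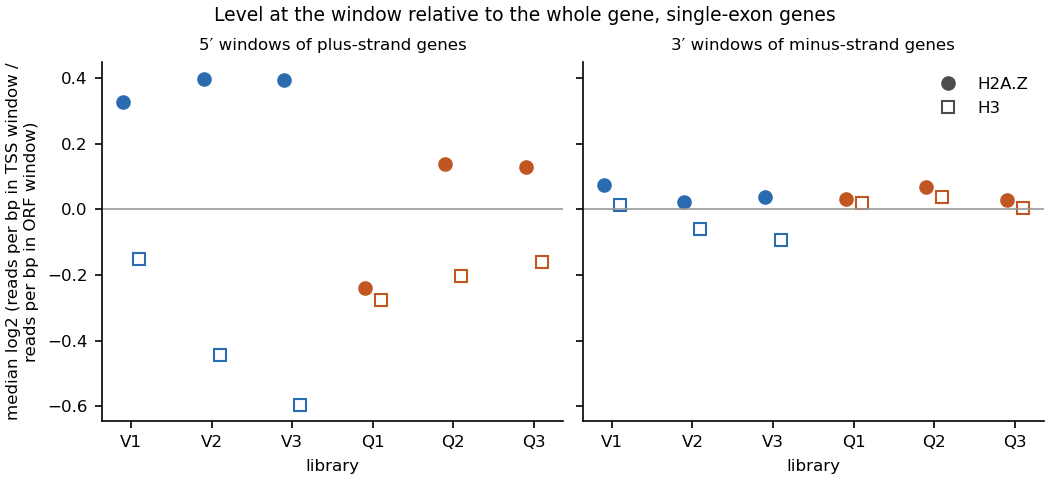
Median log2 ratio of reads per bp in the end window to reads per bp in the ORF window of the same gene, for each V and Q library, at 5′ windows of 1707 plus-strand genes and 3′ windows of 1775 minus-strand genes. Filled circles are H2A.Z and open squares are H3. H2A.Z at 5′ windows lies between 0.33 and 0.40 in V cells and between -0.24 and 0.14 in Q cells.

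The change of H2A.Z in each window was fitted with limma, and windows with a Benjamini-Hochberg adjusted p under 0.05 and a change of more than 1 on the log2 scale were called. Among 5′ windows of plus-strand genes, H2A.Z rose in 169 (5.19% of the 3255 tested) and fell in 62 (1.9%), around a median change of -0.29. Among 3′ windows of minus-strand genes, it rose in 370 (11.5% of the 3211 tested) and fell in 21 (0.654%), around a median of 0.32. Without replicate 1, 182 (5.59%) and 25 (0.768%) of the 5′ windows were called up and down, of which 148 and 17 were shared. The counts at 3′ windows were then 276 (8.6%) and 12 (0.374%), of which 251 and 7 were shared. In both kinds of window a smaller share of the decreases than of the increases was shared. H3, fitted in the same way, rose in 3.1% of 5′ windows and 1.62% of 3′ windows, and in 6.27% and 3.21% without replicate 1 (limma).

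The windows that rose and those that fell reached similar levels in Q cells. The median H2A.Z level of the 169 windows called up went from 145 in V cells to 328 in Q cells, and that of the 62 called down from 642 to 313. These windows were selected by that change, so the values describe them and test nothing. Over the 3024 5′ windows not called, the medians were 394 and 325.

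The largest increases at 5′ windows were at SPBC16A3.02c (1.83) and pil1. The pil1 gene encodes the main component of eisosomes, furrows of the plasma membrane. Its window (chromosome III, 348492 to 348892) had H2A.Z values of 156, 76.5, and 94.2 in V replicates 1 to 3 and 404, 306, and 329 in Q replicates 1 to 3. All Q values lay well above all V values. The log2 fold change was 1.72 ± 0.14 (SE, limma, Benjamini-Hochberg adjusted p = 4.62e-10), and 1.89 without replicate 1. H3 at pil1 rose less, by 0.70, so that H2A.Z relative to H3 was still called up (1.02). The next were at tdh1, SPAPB15E9.06, and SPCC1682.06, each with a log2 fold change of 1.58. At tdh1, a glyceraldehyde-3-phosphate dehydrogenase gene of glycolysis, H2A.Z was 188, 103, and 131 in V cells and 432, 378, and 426 in Q cells. There H3 was 202, 134, and 64.7 in V cells and 351, 426, and 431 in Q cells. The change of H3 was 1.72, and H2A.Z relative to H3 did not pass the test at tdh1 (-0.14).

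The decreases at 5′ windows were led by the non-coding RNA gene SPNCRNA.1129 and by toe3, fol1, cnp20, and sod2. At SPNCRNA.1129 H2A.Z was 516, 580, and 588 in V cells and 221, 272, and 243 in Q cells, a log2 fold change of -1.19. At cnp20, which encodes the kinetochore protein CENP-T, the values were 592, 706, and 682 in V cells and 232, 340, and 329 in Q cells (-1.15 ± 0.13 SE, limma, Benjamini-Hochberg adjusted p = 3.00e-08). The 3 Q values of both genes were below all of their V values. At sod2, a sodium ion antiporter gene, H2A.Z was 528, 560, and 636 in V cells and 260, 278, and 244 in Q cells (-1.13). At fol1, a folate synthesis gene, and at toe3, the log2 fold changes of -1.16 and -1.17 became -0.91 and -0.97 without replicate 1 and were then not called. The change of H3 at these 5 windows ran from -0.37 at sod2 to -0.04 at SPNCRNA.1129.

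**Figure D3:**
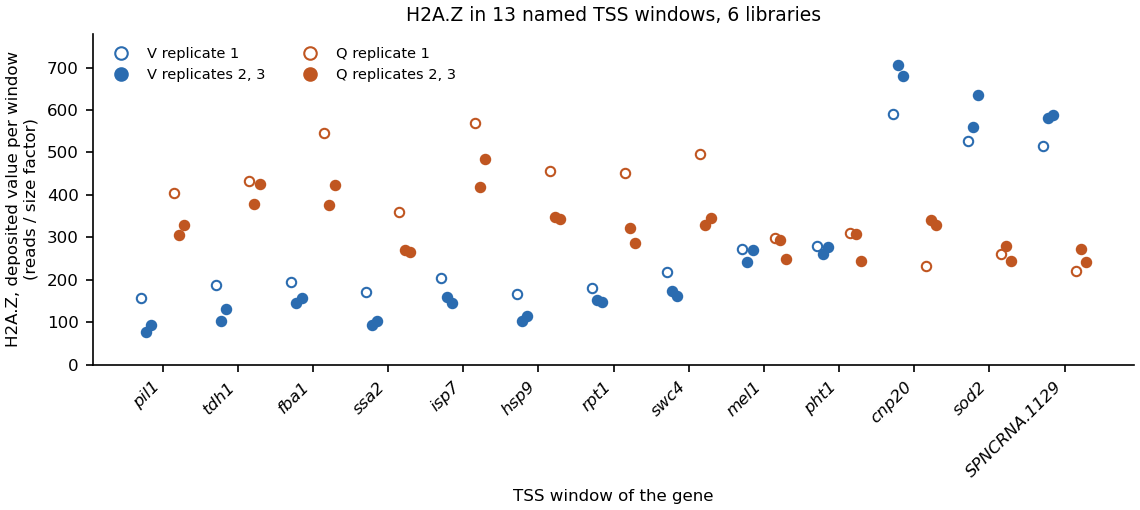
H2A.Z values (normalized reads per 400-bp window) of 13 named TSS windows in the 3 V and 3 Q libraries, with replicate 1 as open points. At pil1, tdh1, isp7, hsp9, rpt1, and swc4 all Q points lie above all V points, at cnp20, sod2, and SPNCRNA.1129 all Q points lie below, and at pht1 (244 to 310) and mel1 (242 to 298) they overlap.

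Most of the increases at 3′ windows were where genes converge. Of all 3′ windows, 11.5% were called up and 0.654% down. Of the 1368 convergent windows, 268 were called up and 0 down (median change 0.72). Of the 1149 tandem windows, 51 were called up and 9 down (median -0.03). Without replicate 1, 170 convergent windows were called up and 1 down (median 0.64), against 8.6% and 0.374% of all 3′ windows. The count of 0 decreases, and each count of 0 that follows for the H2A.Z calls of a list or a kind of gene, was also 0 with an unadjusted p under 0.05 in place of the adjusted one (limma, same threshold on the change) and with edgeR and DESeq2 on the recovered reads, except at tRNA genes. H3 rose in 7 of the convergent windows (1.62% of all 3′ windows), and its median change there was -0.10. Fitted relative to H3, H2A.Z rose in 378 of the 1368 windows (14.2% of all 3′ windows). H3K4me3, a mark of active gene starts, was called up in 992 of them (54.2% of all 3′ windows), and in 985 without replicate 1 (54.4%).

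Of the 268 convergent windows called up, some belong to listed genes of protein degradation and of H2A.Z exchange. These are given as examples, and no preference for such genes was tested. At rpt1, an ATPase subunit of the proteasome regulatory particle, H2A.Z was 179, 153, and 147 in V cells and 453, 323, and 287 in Q cells (1.12 ± 0.12 SE, limma, Benjamini-Hochberg adjusted p = 6.23e-09). H3 at the same window was 319, 382, and 442 in V cells and 382, 330, and 361 in Q cells, which overlap, and the H2A.Z change relative to H3 was 1.20. At swc4, a SWR1 subunit, H2A.Z was 217, 173, and 161 in V cells and 497, 330, and 345 in Q cells, a log2 fold change of 1.07. H2A.Z in Q replicate 1 was the highest value of both genes. Without replicate 1 the changes were 1.02 at rpt1 and 1.01 at swc4, just past the threshold. At atg15, a vacuolar lipase of autophagy, the change was 1.28, and 1.34 relative to H3.

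A second set of 3′ windows rose together with H3. The largest increase was at SPNCRNA.1425 (1.86), followed by SPCC794.16 (1.67), hsp9 (1.59), SPAC22F8.03c (1.54), and isp7 (1.54). At isp7, a nitrogen starvation gene of the oxygenase family, H2A.Z was 204, 158, and 144 in V cells and 569, 419, and 485 in Q cells. H3 at isp7 was 197, 146, and 120 in V cells and 449, 517, and 504 in Q cells. H2A.Z relative to H3 was then -0.15 at isp7, which did not pass the test. At hsp9, a small heat shock protein gene, H2A.Z was 166, 103, and 113 in V cells and 456, 349, and 342 in Q cells, and H3 rose by 1.01. The decreases at 3′ windows were led by SPAC27F1.05c (-1.20), where H2A.Z was 582, 694, and 706 in V cells and 225, 304, and 345 in Q cells. The next were 2 antisense transcripts, ayr1-antisense-1 (-1.18) and SPBC1734.03-antisense-1 (-1.13), with mug136 (-1.16) and SPAPB24D3.07c (-1.14) between them. Without replicate 1, 7 of the 21 decreases at 3′ windows were still called, and that at mug136 was not.

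The increases at both kinds of window can be set beside H3. Among the 169 5′ windows called up for H2A.Z, H3 was called up in 50 and its median change was 0.66, and without replicate 1 in 69, with a median of 0.80. Among the 370 3′ windows called up, H3 was called up in 22 and its median change was -0.04, and without replicate 1 in 29, with a median of -0.20. Fitted relative to H3, 84 of the 5′ windows rose (2.58%) and 95 fell (2.92%), and 43 and 22 of these were calls of H2A.Z alone. The count of increases at 3′ windows was higher relative to H3, at 457 (14.2%), of which 259 were shared, with 33 decreases (1.03%), of which 4 were shared. As H2A.Z in Q replicate 1 matched its own H3 library within sampling noise, the counts relative to H3 were also taken without replicate 1, and were then 109 (3.35%) and 205 (6.3%) at 5′ windows and 574 (17.9%) and 83 (2.58%) at 3′ windows.

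**Figure D4:**
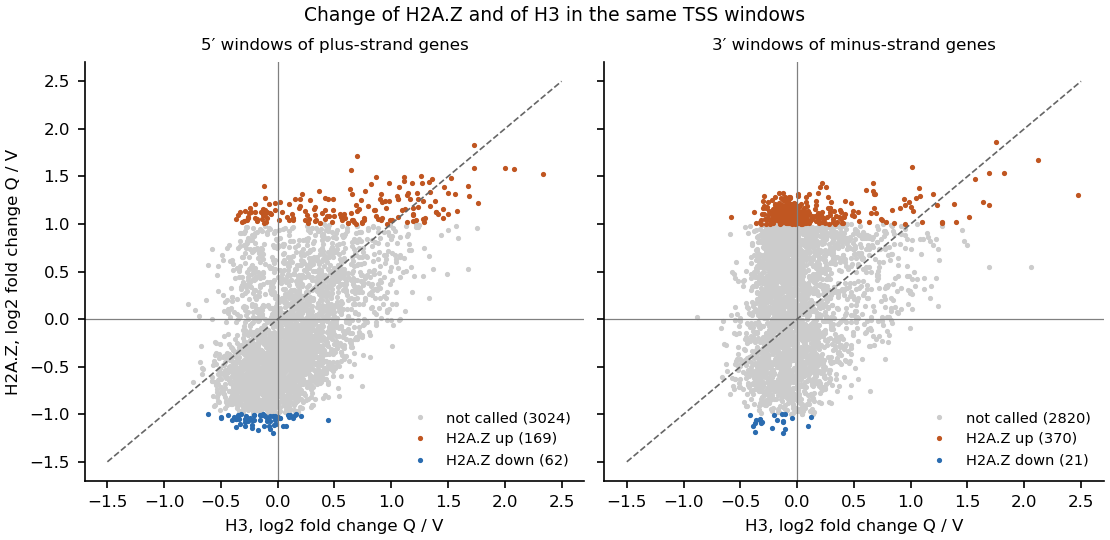
Log2 fold change of H2A.Z (Q over V) against that of H3 for each tested window, at 5′ windows of plus-strand genes (169 called up, 62 down, 3024 neither) and 3′ windows of minus-strand genes (370, 21, and 2820). The dashed line marks equal change. Points called up at 5′ windows extend along the line, with a median H3 change of 0.66, whereas most of those at 3′ windows sit near an H3 change of 0.

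Genes of glycolysis had the highest median change at 5′ windows among the gene lists described here. The small counts of this paragraph stand against increases at 5.19% of all 5′ and 11.5% of all 3′ windows. Decreases were at 1.9% and 0.654%. H2A.Z rose at 5 of 9 5′ windows (median 1.05, against -0.29 over all 5′ windows), at 1 of 8 3′ windows (0.88, against 0.32), and fell at 0 of either. Beside tdh1, these included hxk2 (hexokinase, 1.43), fba1 (fructose-bisphosphate aldolase, 1.43), and eno101 (enolase, 1.40). H3 had a median change of 0.78 at the same 9 windows, and H2A.Z relative to H3 changed by 0.24 at hxk2 and 0.16 at fba1. At eno101 and tdh1 the sign turned relative to H3, to -0.28 and -0.14. Without replicate 1, the same 5 5′ windows of glycolysis genes were called up for H2A.Z, but the 1 3′ window called was a different one. Of the heat shock and chaperone genes, H2A.Z rose at 1 of 4 5′ windows, that of the Hsp70 gene ssa2 (1.32, and -0.25 relative to H3), and at 1 of 9 3′ windows, that of hsp9. At gpd3, another glyceraldehyde-3-phosphate dehydrogenase gene, the change was 0.35.

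Genes of nitrogen uptake and starvation had calls in each kind of window. The counts of this paragraph are small and stand against increases at 5.19% of all 5′ windows and 11.5% of all 3′ windows. The shares of decreases were 1.9% and 0.654%, and 1.47% over ORF windows. H2A.Z rose at 2 of 10 5′ windows (list median -0.43), those of the ammonium transporter gene amt1 (1.26) and the permease gene per1 (1.04). It rose at 2 of 9 3′ windows (0.74), those of isp7 and the oligopeptide transporter gene isp4 (1.27). Over ORF windows it rose at 5 of 19, with isp7 (1.33), amt1 (1.26), the protease gene isp6 (1.24), and the glutamine synthetase gene gln1 (1.14) in the lead, against 1.17% of all ORF windows. Relative to H3, these 4 changed by 0.08, 0.35, 0.45, and 0.41, under the threshold of 1. Among the mating and pheromone genes, H2A.Z rose at 2 of 12 5′ windows, those of ste11, which encodes the transcription factor that starts sexual development (1.19), and of sxa1, an aspartic protease (1.26). Relative to H3, the TSS windows of ste11 (0.39) and sxa1 (0.52) were not called. The same held at the TSS windows of amt1 (0.20), per1 (0.47), and isp4 (0.23), and H3 itself was called up at amt1 (1.06) and isp4 (1.04). Autophagy genes rose at 2 of 15 3′ windows, those of atg15 and atg9 (1.01, and 0.97 without replicate 1), and at 0 of 9 5′ windows (median -0.61). Of the proteasome regulatory particle genes, rpt1, rpt2 (1.10), and rpn2 (1.02) rose among 8 3′ windows and rpn6 (1.12) among 11 5′ windows. These 4 remained called both without replicate 1 and relative to H3. S-phase genes of the MBF factor had 0 calls among 11 5′ and 6 3′ windows, with medians of -0.06 and -0.01. The genes of Set1C, the complex that methylates H3K4, had 0 calls among 2 5′ and 6 3′ windows, and 1 decrease among 8 ORF windows, that of shg1 (-1.02, and -0.77 without replicate 1). The meiotically upregulated genes named mug or meu had 1 increase and 1 decrease among 57 5′ windows and 3 and 2 among 67 3′ windows, with medians of -0.02 and -0.00. Without replicate 1, none of these 3 decreases was called.

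Cytosolic ribosomal protein genes had medians above those of all windows in both kinds of window. Of all 5′ and 3′ windows, 5.19% and 11.5% rose and 1.9% and 0.654% fell. H2A.Z rose at 9 of 67 5′ windows (median 0.62) and at 9 of 62 3′ windows (median 0.90), and fell at 0 of either. Without replicate 1, 15 of the 5′ windows were called, the 9 among them, with a median of 0.70. Of the 3′ windows 1 was then called, while their median change was 0.79. H3 had a median change of 0.42 at the 67 5′ windows, and of 0.56 without replicate 1. Fitted relative to H3, H2A.Z rose at none of the 67 5′ windows and at 1 of the 62 3′ windows. The shares of all windows were then 2.58% and 14.2%. At rps1702, H2A.Z was 156, 92.1, and 108 in V cells and 253, 260, and 274 in Q cells (1.18, limma, Benjamini-Hochberg adjusted p = 1.45e-07). The 3 Q values lay above all V values, and the change relative to H3, 0.85, was under the threshold. At rpl2702 the change was 0.41, under the threshold. Many ribosomal protein genes exist in near-identical pairs, whose reads may have been divided between copies. H3K4me3 was called down at 25 of the 67 windows (34.3% of all 5′ windows), and at 7 without replicate 1 (25.8%).

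The upstream sequence was read for the genes whose RefSeq start lay within 20 bp of the window centre. This held for 6 of the 26 named protein-coding 5′ windows with a call, and 3 of the 6 had upstream sequence free of another annotated gene. Of these, 2 are shown 5′ to 3′ up to the base before the start, on the plus strand of ASM294v3 from RefSeq, with matches to 7 motifs on either strand in capitals. The motifs were AGTCACA (part of the HomolD box of ribosomal protein genes), AACCCT (related to the HomolE box), ACGCGT (the box of S-phase genes), TTCTTTG (part of the box bound by Ste11), GATAAG (a motif of GATA factors), TATAAA (found before the start of many genes), and AAAAAAA (a run of A). The upstream sequence of rps1702 (chrIII:917602-917851) is shown because it holds AGTCACA close to the start, and that of sxa1 (chrI:3332304-3332553) because it does not.
rps1702: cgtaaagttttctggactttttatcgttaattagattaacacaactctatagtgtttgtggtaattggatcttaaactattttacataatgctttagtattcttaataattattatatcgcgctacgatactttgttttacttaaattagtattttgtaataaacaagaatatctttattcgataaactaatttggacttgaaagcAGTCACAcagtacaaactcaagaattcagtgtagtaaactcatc
sxa1: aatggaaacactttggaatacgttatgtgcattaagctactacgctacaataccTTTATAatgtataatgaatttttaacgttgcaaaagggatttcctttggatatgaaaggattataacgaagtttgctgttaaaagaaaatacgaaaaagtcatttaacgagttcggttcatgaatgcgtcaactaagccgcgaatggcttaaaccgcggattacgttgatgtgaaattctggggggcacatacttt

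AGTCACA was found in 64.2% of the promoters of the 67 ribosomal protein genes (250 bases before to 50 after the RefSeq start, either strand) and in 4.49% of those of all 2493 protein-coding plus-strand genes. Among the 106 protein-coding 5′ windows called up it was in 10 promoters (9.43%), and 7 of these 10 belong to ribosomal protein genes. It was in 0 of the 51 promoters of windows called down. AACCCT was in 14.2% of promoters called up, 9.80% of those called down, and 9.51% of all. TATAAA was in 45.3%, 64.7%, and 48.1%, and GATAAG in 13.2%, 13.7%, and 11.7%. ACGCGT was in 6.60%, 0%, and 3.17%, TTCTTTG in 12.3%, 5.88%, and 10.2%, and AAAAAAA in 34.9%, 31.4%, and 37.9%. The RefSeq start lay within 20 bp of the window centre for 826 of the 2493 genes, so these promoters and the windows differ. These matches are a description of letters in the promoters, and no binding was measured.

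**Figure D5:**
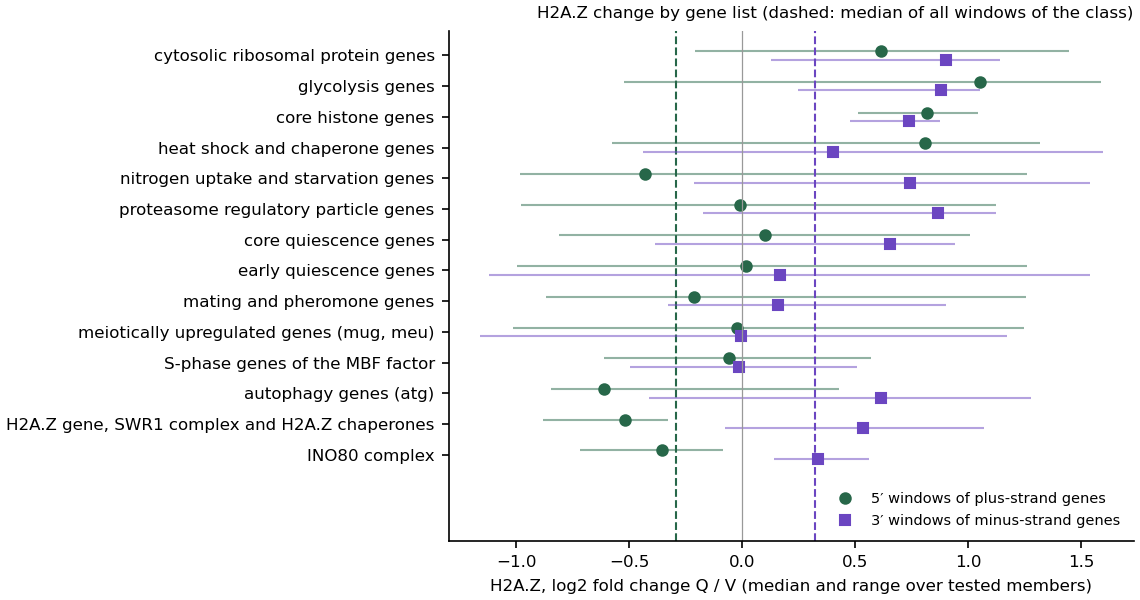
Log2 fold change of H2A.Z (Q over V) by gene list, as the median (points) and the range over tested members (lines), for 5′ windows of plus-strand genes (circles) and 3′ windows of minus-strand genes (squares). Dashed lines mark the median of all windows of each kind (-0.29 and 0.32). Glycolysis genes (1.05 and 0.88) and ribosomal protein genes (0.62 and 0.90) lie to the right of both dashed lines, and the 5′ windows of the SWR1 and INO80 lists (-0.52 and -0.35) lie to the left.

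The genes that encode H2A.Z and its exchange factors followed the direction of their kind of window. Their counts stand against increases at 5.19% of all 5′ and 11.5% of all 3′ windows, and decreases at 1.9% and 0.654%. At pht1 itself, whose window lies at the 3′ end of the gene, H2A.Z was 280, 260, and 277 in V cells and 310, 307, and 244 in Q cells. These values overlap (0.07 ± 0.10 SE, limma, Benjamini-Hochberg adjusted p = 0.555). Of the 8 5′ windows of the list of H2A.Z, SWR1, and histone chaperone genes, 0 were called, and their changes ran from -0.88 at vps71, a zinc finger subunit of SWR1, to -0.33 at yaf9, a subunit that SWR1 shares with a histone acetyltransferase. Of the 10 3′ windows, swc4 and msc1 (1.06, and 0.97 without replicate 1) were called up, and swc3 (0.94), nap1 (0.86), and act1 (0.85) lay just under the threshold. At swr1, the catalytic subunit, the change was -0.07. Among the 18 ORF windows of this list, that of vps71 was called down (-1.05, and -1.03 relative to H3), against 1.47% of all ORF windows. Without replicate 1 its change was -0.93, which was not called. Of the INO80 genes, 0 of 7 5′ windows and 0 of 4 3′ windows were called, with medians of -0.35 and 0.34. Core histone genes had higher medians, 0.82 at 4 5′ windows and 0.74 at 5 3′ windows, but hht2, a histone H3 gene, was the call among them (1.04, and 0.28 relative to H3). The histone genes hht1 and hhf1 changed by 0.51 and 0.67 and were not called. Histone genes are near-identical copies, and their reads may have been divided between copies.

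The counts of the quiescence genes stand against increases of H2A.Z at 5.19% of all 5′ windows and 11.5% of all 3′ windows. The shares of decreases were 1.9% and 0.654%. The core quiescence genes were chosen by the study for their expression in Q cells. Of their 7 5′ windows, 1 rose, that of SPAC869.06c (1.01, and 0.96 without replicate 1), and of their 9 3′ windows 0 did, with medians of 0.10 and 0.65. Over their 16 ORF windows, 0 were called for H2A.Z, whereas RNA pol II S5 was called up at 11 (5.17% of all ORF windows) and H3K4me3 at 10 (19.4%). Without replicate 1 these were 12 (6.92%) and 10 (20.2%). At mel1, an alpha-galactosidase gene of this list, H2A.Z was 272, 242, and 269 in V cells and 298, 294, and 250 in Q cells (0.10), while RNA pol II S5 changed by 1.60 and H3K4me3 by 2.39 (1.97 and 2.81 without replicate 1). H3 at mel1 changed by -0.73. At zym1, a metallothionein gene, H2A.Z was 599, 723, and 752 in V cells and 483, 345, and 362 in Q cells, and its change of -0.81 became -1.06 without replicate 1. Of the early quiescence genes, also chosen by the study, H2A.Z rose at 5 of 72 5′ windows and at 5 of 56 3′ windows and fell at 0 and 1, with medians of 0.02 and 0.17.

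Windows near chromosome ends and those of non-coding genes can be set against increases at 5.19% of all 5′ and 11.5% of all 3′ windows. The shares of decreases were 1.9% and 0.654%. Of 67 5′ windows within 100 kb of the ends of chromosomes I and II, H2A.Z rose at 17 and fell at 1 (median 0.60), and 13 of the 17 were called without replicate 1. Of 57 3′ windows there, 13 rose and 1 fell (0.73), and 8 of the 13 were called without replicate 1. Of the SPBPB21E7 genes of chromosome II, SPBPB21E7.08 was called up (1.02, and 0.35 relative to H3), and the TSS windows of the others changed by 0.22 to 0.72. Subtelomeric genes include repeated families, whose reads may be shared between copies. Non-coding RNA genes had 52 increases and 11 decreases among 648 5′ windows (median 0.03) and 46 and 12 among 595 3′ windows (-0.10). Without replicate 1 the decreases were 7 and 7, against 0.768% of all 5′ and 0.374% of all 3′ windows. Many of these windows overlap those of a neighbouring gene, such as SPNCRNA.1553 (1.49) and SPNCRNA.1554 (1.47), whose windows overlap almost entirely, and the assay does not separate strands. At tRNA genes, 0 of 61 5′ windows (2 with edgeR and 1 with DESeq2) and 1 of 56 3′ windows were called up, and the median change of H3 (0.79 and 0.78) was larger there than that of H2A.Z (0.43 and 0.34). At snRNA and snoRNA genes, H2A.Z rose at 7 of 23 5′ windows (0.90) and 3 of 17 3′ windows (0.83). Without replicate 1, 4 of the 5′ windows and 1 other 3′ window were called, with medians of 0.86 and 0.82.

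Over ORF windows, H2A.Z rose at 77 (1.17% of the 6578 tested) and fell at 97 (1.47%), and the median change went with window length. Among protein-coding windows of 3000 bp or more 17 of 891 rose and 0 fell (median 0.33), and among those under 1000 bp 12 of 1592 rose and 56 fell (median -0.37). Without replicate 1 the counts in the short windows turned to 23 up and 10 down, with 7 of the decreases shared, while the medians were -0.30 in short and 0.29 in long windows. Most of the short ones covered part of a gene. Of 1237 plus-strand genes with more than 1 exon, the ORF window was shorter than the gene in 1124, so that it held mainly the 5′ end, and 50 of the decreases were in these 1237 (median -0.48). In 1263 single-exon plus-strand genes, where the window spans the gene, H2A.Z rose at 29 and fell at 6 (median 0.14). In single-exon minus-strand genes it rose at 15 and fell at 5 of 1311 (0.16). Without replicate 1, 143 ORF windows rose (2.17%) and 26 fell (0.395%), and 37 of the 143 were mitochondrial.

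The largest increases over ORF windows were at wtf23 (1.33), isp7 (1.33), hsp9 (1.33), SPNCRNA.313 (1.29), and pil1 (1.27). The wtf genes are a family of near-identical copies, and wtf23 held at most 48.6 normalized reads in any library. At isp7 the ORF values were 1916, 1570, and 1740 in V cells and 4821, 3954, and 4385 in Q cells (1.33 ± 0.04 SE, limma, Benjamini-Hochberg adjusted p = 0.000327). The largest decreases were at SPCC965.12 (-1.25), SPAC4H3.06 (-1.23), SPBC336.16 (-1.20), csm1, a monopolin subunit (-1.18), and SPCC24B10.03 (-1.17). Of these 5, SPCC965.12 (-1.05) and SPAC4H3.06 (-1.14) were also called without replicate 1.

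Mitochondrial DNA holds no nucleosomes, and the share of its reads is given as a measure of each library. Mitochondrial windows held 0.606%, 0.316%, and 0.287% of the ORF reads in V replicates 1 to 3 and 0.245%, 0.665%, and 0.788% in Q replicates 1 to 3. The counting interval of each share is at most 0.0062 percentage points wide on either side (95%, Clopper-Pearson, counting error only). The states overlapped (difference 0.163 percentage points, two-sided exact permutation test, p = 0.5, n = 3 each), and the shares in the H3 libraries were 0.585%, 0.615%, and 0.224% in V and 0.272%, 0.514%, and 0.771% in Q cells. The overlap in H2A.Z libraries came from replicate 1. Without it both Q shares lay above both V shares, by 0.425 percentage points on average.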

How the data were processed

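ChIP-seq libraries of H2A.Z (Myc tag) and H3 from V and Q cells of strain Hu3112 were used, 3 per antibody and state, with those of H3K4me3 and RNA pol II S5 for values set beside them. Per the paper's methods, the authors sheared formaldehyde-fixed chromatin (1%) to about 500 bp, sequenced single reads of 36 cycles, converted them with bcl2fastq 2.20.0.422, aligned them with BWA 0.7.17, handled them with SAMtools 1.17, counted reads with deepTools 3.3.2, and used DESeq2, whose version is not given, to remove batch effects. The submitters' processing notes name build ASM294v2. The deposited signal values are reads per window divided by a size factor for each library, since every value gave a whole number of reads (largest deviation 9.09e-11 reads). Any filter on mapping quality or duplicates was not given in the sources used here. Window positions came from the deposited position lists. The fold changes and p-values that the authors deposited beside the signal were not used, and 0 columns of the tables used were left unmapped. Strand, exons, and promoters came from RefSeq ASM294v3 (6521 windows matched by identifier, 92 did not, 38 of them mitochondrial).

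Q was compared with V by limma 3.58.1 with a variance trend (R version 4.3.3), using log2(value + 1). A window was tested where 3 or more libraries (2 where a replicate was left out) had a value of 10 or higher. Fold changes are on that scale, which understates those of low windows. The replicate number was a block, since the study used DESeq2 against batch effects and the values fitted carry no such correction. Deviations of same-numbered V and Q libraries from their group means correlated at 0.605, 0.518, and 0.403 in TSS windows. Across numbers, V replicate 2 with Q replicate 3 (0.515) and V replicate 3 with Q replicate 2 (0.409) correlated about as well. The block thus sets replicate 1 apart from the others and does not pair replicates 2 and 3. Single values per library were compared by exact permutation in Python 3.11.15 with numpy 2.4.6. The software also included pandas 2.3.3 and scipy 1.17.1, and figures were drawn with matplotlib 3.10.9. In libraries simulated from these means, with a dispersion of 0.02, limma called 100% of 100 windows changed by 1.5 and of 100 changed by 2.0 on the log2 scale, and 0 unchanged ones, among 6613 windows of the TSS comparison. The simulated libraries shared a common mean profile and had no replicate effect and no outlying library. This checks that the fit runs as intended and gives no error rate for the real libraries.

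Alternatives were no replicate block, each replicate left out, edgeR 4.0.16 and DESeq2 1.42.0 on the recovered reads, library totals, no filter, a pseudocount of 5, the change relative to H3, and V replicates 2 and 3 as 1 library. Leaving out Q replicate 1 alone, the change relative to H3 without replicate 1, and the other antibodies without replicate 1 were added after seeing the data. Genes were named by 1 rule: in each direction and kind of window, the 5 largest calls with the same sign in each of 3 same-numbered pairs, all genes of the SWR1 and INO80 lists, the core quiescence genes, rpl2702, hht1, hhf1, gpd3, and the SPBPB21E7 genes, and up to 4 called members of each other list. A gene that the rule names is not reported here. The comparison, the gene lists, and this rule were chosen with earlier results of these data known. H3K9ac was used only to compare libraries of the same number, and the libraries of input chromatin, H3K9me2, H3K9me3, and RNA pol II S2 were not used here.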

Additional observations from a re-analysis of the deposited data

How the results depend on the processing

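Counts of calls are given as increases and decreases at 5′ windows, 3′ windows, and ORF windows in turn. As fitted, they were 169 and 62, 370 and 21, and 77 and 97, 231, 391, and 174 in all. Without the replicate block 231, 391, and 174 windows were called. Leaving out 1 replicate number gave 139 to 182 and 25 to 122, 276 to 509 and 12 to 41, and 70 to 143 and 26 to 210, or 207 to 286, 288 to 550, and 169 to 303 in all. The lowest decreases, and more increases than decreases over ORF windows (143 and 26), came without replicate 1. Scaled to library totals, the decreases at 5′ and 3′ windows were 23 and 13, and the ORF counts 47 and 148. Relative to H3, 5′ windows had more decreases than increases, and the counts were 84 and 95, 457 and 33, and 34 and 214, and this scaling moved the median of all TSS windows from -0.02 to -0.12. Relative to H3 without replicate 1 they were 109 and 205, 574 and 83 (657 in all), and 98 and 372 (470 in all). With V replicates 2 and 3 as 1 library and no replicate block, they were 109 and 31 (140), 240 and 16 (256), and 37 and 49 (86). Without Q replicate 1 and with no replicate block, they were 93 and 11 (104), 84 and 7 (91), and 37 and 9 (46). The counts with edgeR, DESeq2, no filter, and a pseudocount of 5 were within 1.5 times those as fitted.

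The difference of the ratio at 5′ windows stayed below 0 under every alternative, from -0.55 to -0.26. That at 3′ windows, -0.00098, was 0.0034 as a mean over genes, -0.045 over all genes, -0.068 relative to H3, and -0.025 to 0.019 with 1 replicate left out. The mitochondrial share differed by -0.0061 to 0.425 percentage points with 1 replicate left out.

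Of 82 named windows with a call, 67 were also called without replicate 1 and 28 relative to H3. The sign turned relative to H3, with the value without replicate 1 second, at the TSS windows of isp7 (-0.15, -0.37), ssa2 (-0.25, -0.58), tdh1 (-0.14, -0.41), eno101 (-0.28, -0.60), SPNCRNA.1553 (-0.044, -0.30), SPNCRNA.1554 (-0.10, -0.37), SPAPB15E9.06 (-0.42, -0.94), SPCC1682.06 (-0.50, -0.90), SPCC794.16 (-0.45, -0.87), and SPAC22F8.03c (-0.28, -0.59), and at the ORF windows of tdh1 (-0.38, -0.56), fba1 (-0.086, -0.25), and SPAPB15E9.02c-antisense-1 (-0.68, -1.07). Without replicate 1 alone it turned relative to H3 at the TSS windows of fba1 (-0.11), SPNCRNA.1425 (-0.18), and SPBC16A3.02c (-0.20) and the ORF windows of isp7 (-0.019) and wtf23 (-0.14). The cause of these changes was not tested. The resemblance of H2A.Z in Q replicate 1 to H3 limits every comparison here, since 2 Q libraries remain without it, and the lack of a stated spike-in scale limits it to relative changes.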
